A study of Mus musculus with 8 samples.

Results

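The mRNA levels of 35 genes of the endoplasmic reticulum (ER) stress and ATF4 amino acid programmes were followed in cultured mouse ovarian follicular cells given FOXL2 siRNA and 17β-estradiol (E2). They were listed for their known roles and found through their mouse Entrez gene IDs. All 35 were matched, out of 24232 genes measured, and all 35 passed the filter on low signal, which kept 15645 genes. They fall into an ATF4 arm of 20 genes and a chaperone arm of 15 genes. The cells, given in the sample labels as mostly granulosa cells, were dispersed from preantral follicles of 8-week-old female Swiss mice, with 5 mice pooled per replicate, and were lysed after 9 days of culture. All groups shared phenol red-free medium with charcoal-treated serum and without added androstenedione. They also shared a lipid transfection of 12 pmol of siRNA with a fluorescent reporter plasmid. Each siRNA, control or FOXL2, was combined with either vehicle or E2, which made 4 groups of 2 arrays. The siRNAs were pools, and E2 was given at 100 nM for the 10 h before lysis. The labels count 24 h of siRNA up to lysis, whereas the study's text places the 24 h before E2 was added. FOXL2 is a transcription factor that granulosa cells need, and E2 is the main ovarian estrogen.

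Cells that meet amino acid shortage, misfolded protein in the ER or other stresses phosphorylate the translation factor eIF2α. General translation then slows while the mRNA of the transcription factor ATF4 is translated better, and ATF4 switches on genes for amino acid synthesis and uptake. In parallel, the ER sensors IRE1, encoded by Ern1, and ATF6 raise chaperones, disulfide isomerases and degradation factors of the ER. Both sensors are activated at the protein level, as is ATF4, so that the mRNA of these regulators is only one of their controls. Granulosa cells secrete hormones and matrix proteins that are folded in the ER.

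The signal is given below as the log2 of the array intensity after scaling by the 75th percentile of that array. It depends on the probe, so levels were compared between arrays and never between genes. A change is a difference of these log2 values in a limma fit over all 8 arrays, and a gene is called where its p-value, adjusted over all 15645 genes, is under 0.05. The p-values measure the spread between the 2 replicates of each group. That spread mixes mouse pool and row of the slide, and the labels do not say whether groups shared a pool. Foxl2 itself was not lower in the arrays labelled FOXL2 siRNA. Its log2 signal was 13.46 and 13.02 on the control arrays under vehicle, 12.95 and 12.77 on those under E2, 13.41 and 13.40 on the FOXL2 siRNA arrays under vehicle, and 13.13 and 12.97 on those given E2. Taken over vehicle and E2 together, Foxl2 differed by 0.18 (SE 0.10, limma adjusted p = 0.334). Its 2 probes differed. The dim one (mean log2 signal 6.20) ran the way of the label, with a change of -0.97 (adjusted p = 0.0200 over probes), and the bright one (14.1), which sets the value of the gene, was not called (0.18, adjusted p = 0.364). The array signal of Foxl2 thus does not settle the siRNA labels, every siRNA direction below rests on them, and "FOXL2 siRNA arrays" and "control arrays" stand for the arrays labelled so.

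The E2 labels of the control arrays are open to doubt. Hsd11b2, Tacc1, Angpt2 and Cbs are named in the study's text as raised by E2. In the arrays labelled control siRNA, 4 of these 4 genes were lower with E2, with values of -2.33 to -1.03, and Cbs was called (-2.11, SE 0.17, limma adjusted p = 0.0141). In the FOXL2 siRNA arrays 4 of 4 had a higher value, of 0.55 to 1.94, none called. Whether vehicle and E2 were exchanged among the control arrays was not tested, and the labels were kept. Such an exchange would turn the sign of every E2 value with control siRNA, would alter the siRNA changes given for vehicle or E2 alone and the difference between the E2 effects, and would leave the siRNA changes over both treatments as they are.

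Markers of the cells in the culture were examined first. Of 12 granulosa markers 9 were well above background on all 8 arrays, while Amh and Fshr were on none. Of 5 measured theca markers 4 were well above background on 8 arrays and Lhcgr on none. The summed signal of the theca markers was 20989 to 23998 on the control siRNA arrays and 39019 to 41549 on the FOXL2 siRNA arrays, that is, higher on all 4 of the latter. The summed granulosa signal also did not overlap, with 142014 to 149740 against 159772 to 178299. These sums are of linear signal, so bright markers weigh most, and a sum does not give the direction of each marker in it. The other sums overlapped. For stroma and fibroblast markers (4 of 5 on all arrays, Pdgfra on none) they were 5411 to 10207 against 6814 to 14284, and for endothelial markers (2 of 5 on all arrays, Cdh5, Tek and Emcn on none) 1108 to 1826 against 1601 to 1965. For macrophage and blood markers (3 of 5 on all arrays, Ptprc on none) they were 1760 to 2043 against 1593 to 2111, and for oocyte markers (1 of 6 on all arrays, Zp3, Bmp15, Nlrp5 and Oosp1 on none) 106 to 179 against 109 to 134. The part of these markers in the siRNA results was not tested. In such bulk samples, fewer cells of a type and less RNA per cell cannot be told apart.

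The first question was how the genes of both arms differed between the siRNAs. Among the 35 genes, 2 amino acid transporter genes fell with FOXL2 siRNA over both treatments: Slc3a2 to 53.8% of control siRNA (95% interval 47.0 to 61.5%) and Slc7a1 to 84.7% (77.0 to 93.1%). No gene rose past the threshold, and none of the 15 genes of the chaperone arm was called. In the whole table, 12.6% of genes were called in this comparison, 6.18% lower and 6.39% higher. The 2 of 20 genes of the ATF4 arm thus stand at 10% and the 0 of 15 genes of the chaperone arm at 0%, neither above the background share. At an unadjusted p under 0.05 there were 9 genes in the ATF4 arm, or 45%, and 3 in the chaperone arm, or 20%, against 26.8% of all genes. The median change was -0.02 in the ATF4 arm and -0.03 in the chaperone arm, beside 0.00 over all genes.

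These counts come from a fit that leaves out the replicate number, which also marks the row of the slide, and each row held all 4 groups. With the number as a block, 11 of the 35 genes were called over both treatments, 8 of 20 in the ATF4 arm and 3 of 15 in the chaperone arm, while the share of all genes called rose to 27.7%. Beside Slc3a2 and Slc7a1, these were Ddit3 and Ddit4, higher, and Ppp1r15a, Psat1, Psph, Shmt2, Xbp1, Pdia4 and Herpud1, lower. Below, "called" without mention of the block means the fit without it.

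**Figure D1:**
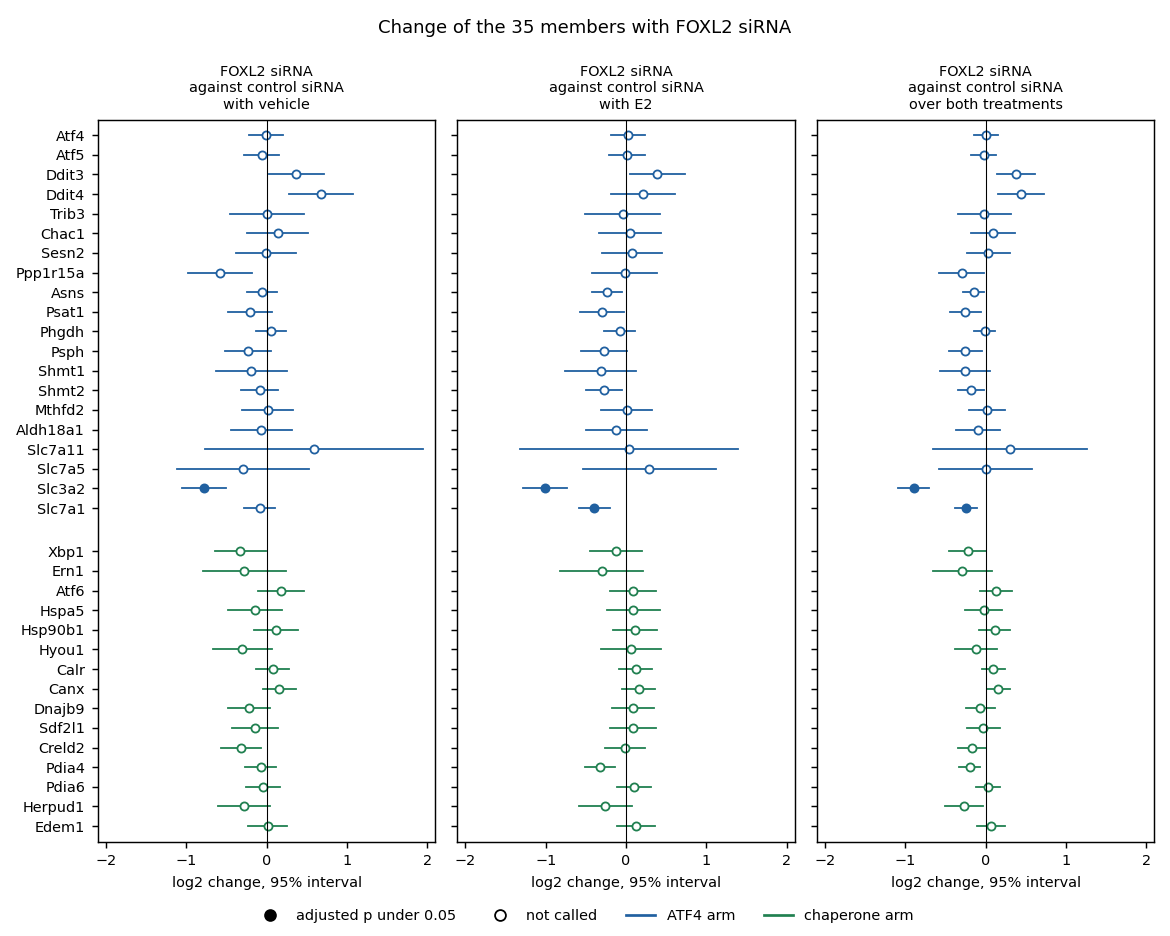
Log2 change of the 35 genes between FOXL2 siRNA and control siRNA (x axis) with vehicle, with E2 and over both treatments (panels from left to right), with the 95% interval of the limma fit, for the ATF4 arm (blue) and the chaperone arm (green). Filled points, which mark an adjusted p under 0.05, appear for Slc3a2 in the 3 panels and for Slc7a1 with E2 and over both treatments.

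Slc3a2 encodes the heavy chain of the heterodimeric amino acid transporters, a membrane glycoprotein also known as CD98 or 4F2hc that carries the SLC7 light chains to the cell surface. Its log2 signal was 14.91 and 15.19 on the control arrays under vehicle and 15.04 and 15.22 on those under E2. On the FOXL2 siRNA arrays it was 14.28 and 14.27 under vehicle and 14.05 and 14.19 with E2. All 4 FOXL2 siRNA arrays lay below all 4 control arrays, by more than the differences between replicates of a group. The change was -0.78 with vehicle (SE 0.12, limma adjusted p = 0.00933), -1.01 with E2 (SE 0.12, adjusted p = 0.00508) and -0.90 over both treatments (SE 0.08, adjusted p = 0.000737). Among arrays of replicate number 1, which lay in the same row of the slide, it was -0.63 with vehicle and -0.99 with E2, and among those of number 2 it was -0.93 and -1.04. The call over both treatments and that with E2 held in each of the 8 fits that left out 1 array. The call with vehicle was lost without either array of FOXL2 siRNA with vehicle, where a lone array remained in that group (-0.79, adjusted p = 0.0529 without replicate 1, and -0.77, adjusted p = 0.0694 without replicate 2).

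The ATF4 arm was also examined for the DNA elements that ATF4 and the ER sensors are known to use. RefSeq promoter windows, from 250 bases before to 50 after the start of a gene in GRCm38.p6, were at hand for 32 of the 35 genes, 19 in the ATF4 arm and 13 in the chaperone arm. Both strands were searched, and sites outside these windows were not. Slc3a2, printed here because its signal changed most among the members past the threshold, held no match to any of the 4 elements searched.
Slc3a2 promoter, GRCm38.p6, chr19:8713898-8714147, minus strand: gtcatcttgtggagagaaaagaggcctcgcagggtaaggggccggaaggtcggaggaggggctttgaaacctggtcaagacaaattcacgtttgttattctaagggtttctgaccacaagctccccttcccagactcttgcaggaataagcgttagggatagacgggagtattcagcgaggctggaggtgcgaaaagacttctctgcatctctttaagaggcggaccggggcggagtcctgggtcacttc

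Slc7a1 encodes CAT1, a carrier of the cationic amino acids arginine and lysine that works without SLC3A2. On the log2 scale it read 13.31 and 13.35 on the control arrays under vehicle, 13.42 and 13.53 on those under E2, 13.26 and 13.23 on the FOXL2 siRNA arrays under vehicle, and 13.01 and 13.14 on those given E2. All FOXL2 siRNA arrays lay below the control arrays, narrowly so with vehicle. The change was -0.40 with E2 (SE 0.08, limma adjusted p = 0.0405) and -0.24 over both treatments (SE 0.06, adjusted p = 0.0363), while with vehicle it was -0.08 (SE 0.08, adjusted p = 0.671). Both calls were lost in each of the 8 fits that left out 1 array, with changes of -0.46 to -0.33 with E2 (adjusted p 0.0578 to 0.213) and -0.27 to -0.21 over both treatments (adjusted p 0.0608 to 0.122), and also with no filter on low signal (adjusted p = 0.0614 and 0.0516). The difference between the siRNA effects with E2 and with vehicle, -0.31, was not called (adjusted p = 0.896). Here and for other genes, siRNA changes by treatment rest on the E2 labels of the control arrays, open to doubt as given above.

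The other transporters of the arm were not called. Slc7a5, the light chain LAT1 that carries large neutral amino acids, had signals from 7.60 to 8.35 on the FOXL2 siRNA arrays with vehicle and 7.89 to 8.64 on the matching control arrays. Its change was -0.29 with vehicle and 0.29 with E2 (SE 0.35 for each), which gave 0.00 over both treatments (SE 0.25). The scatter between replicates was wide, with replicate 2 the higher in every group. With the replicate block, the difference between the E2 effects was 0.58 (SE 0.17, limma adjusted p = 0.148). Slc7a11, the cystine and glutamate exchanger xCT, was not well above background on 3 of 8 arrays, 1 in each group apart from FOXL2 siRNA under vehicle. The siRNA difference was 0.31 (SE 0.41, limma adjusted p = 0.698) over vehicle and E2.

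Because SLC3A2 works in pairs with light chains, its other light chain genes were then read, a choice made after the values had been seen. Slc7a8, the light chain LAT2 for neutral amino acids, was lower with FOXL2 siRNA. Its log2 signal was 13.18 and 13.29 on the control arrays under vehicle and 13.34 and 13.52 on those under E2, against 11.99 and 11.56 on the FOXL2 siRNA arrays under vehicle and 11.45 and 11.15 on those given E2. The change was -1.46 with vehicle (SE 0.16, limma adjusted p = 0.0031), -2.13 with E2 (SE 0.16, adjusted p = 0.00131) and -1.79 over both treatments (SE 0.11, adjusted p = 0.000195), and these 3 calls held in each of the 8 fits without 1 array. Slc7a6, the light chain y+LAT2 for cationic and neutral amino acids, was lower too, with a change of -0.49 over vehicle and E2 (SE 0.10, limma adjusted p = 0.0147). This call was lost in 3 of those 8 fits: without replicate 1 of control siRNA with E2 (adjusted p = 0.057), and without replicate 2 of FOXL2 siRNA with vehicle (adjusted p = 0.052) or with E2 (adjusted p = 0.057). Slc7a7, its relative y+LAT1, was not called (0.09, SE 0.07, adjusted p = 0.516), and the light chain Slc7a10 and the cationic carrier Slc7a2 were above background on 0 arrays.

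**Figure D2:**
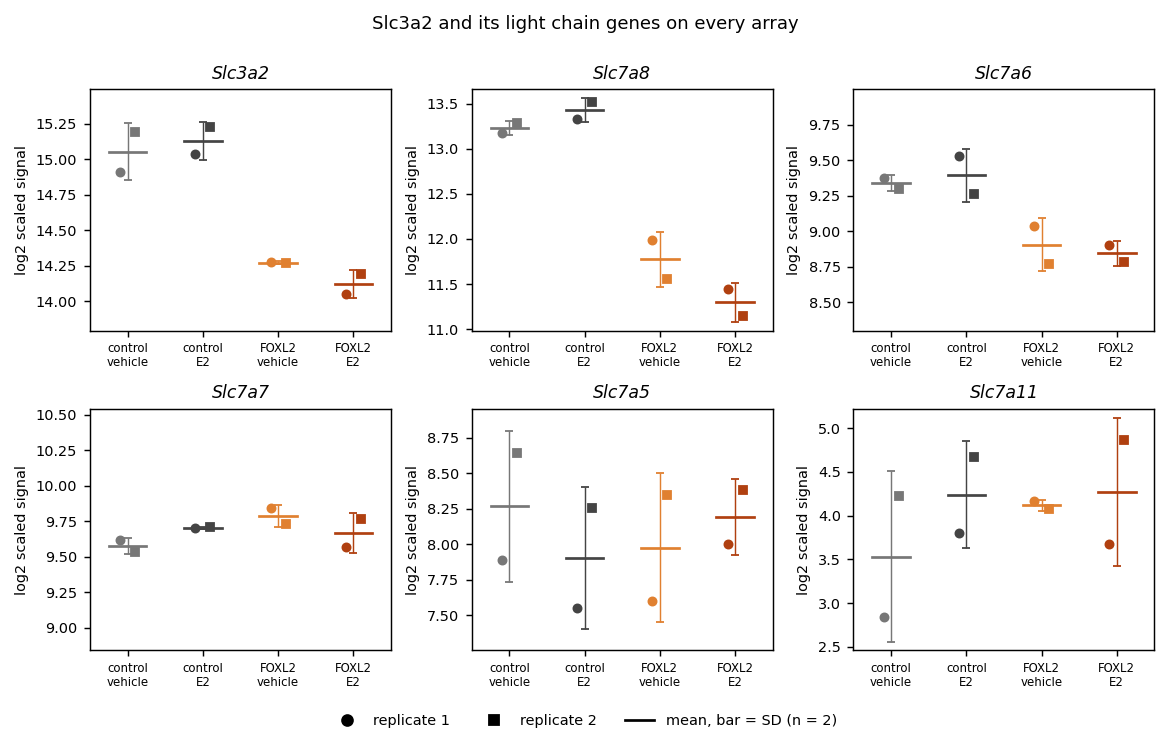
Log2 scaled signal (y axis, each panel with its own range) of Slc3a2 and of 5 light chain genes on every array, by group, with the mean and the SD (n = 2). The FOXL2 siRNA arrays lie below all control arrays for Slc3a2, Slc7a8 and Slc7a6, and the groups overlap for Slc7a7, Slc7a5 and Slc7a11.

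The amino acid and one-carbon enzymes of the ATF4 arm showed small differences that did not pass the threshold. Over both treatments 7 of the 8 had a negative value, with a median of -0.17 and a range of -0.25 to 0.01 (limma adjusted p 0.0943 to 0.956). In the whole ATF4 arm 13 of 20 genes were negative (median -0.02), beside 50.6% of all genes. Asns encodes asparagine synthetase, a standard readout of ATF4 activity. Asns gave a log2 signal of 14.03 on both control arrays under vehicle, 14.09 and 14.19 on those under E2, 14.02 and 13.91 on the FOXL2 siRNA arrays under vehicle, and 13.93 and 13.87 on those given E2. All FOXL2 siRNA arrays lay below the control arrays, touching them closely with vehicle. The change of Asns was -0.06 with vehicle (SE 0.08, adjusted p = 0.771), -0.24 with E2 (SE 0.08, adjusted p = 0.183) and -0.15 over both treatments (SE 0.06, adjusted p = 0.144). Quantile normalization brought the last value past the threshold (-0.20, adjusted p = 0.0258).

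Psat1 and Psph of serine synthesis and Shmt2, which uses serine, gave similar values and passed the threshold only with the replicate block. Over both treatments Psat1 (-0.25, SE 0.08) and Psph (-0.25, SE 0.09) had adjusted p of 0.0943 and 0.109 in the limma fit, and the mitochondrial serine hydroxymethyltransferase Shmt2 (-0.18, SE 0.07) had 0.141, against 0.0263, 0.0109 and 0.0481 with the block. The FOXL2 siRNA arrays lay below all control arrays for these 3 genes. Phgdh, the first enzyme of serine synthesis, had a value of -0.01 (SE 0.06, adjusted p = 0.92). Shmt1 (-0.25, SE 0.14), Mthfd2 (0.01, SE 0.10) and Aldh18a1 (-0.10, SE 0.12), for cytosolic and mitochondrial one-carbon metabolism and for proline synthesis, overlapped between the siRNAs.

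The promoter window of Asns is printed with its match to the ATF4 composite element, TGATGNAA, in capitals, because this gene and its element are the classic example of ATF4 control. The match began 23 bases before the start of the gene.
Asns promoter, GRCm38.p6, chr6:7693210-7693459, minus strand: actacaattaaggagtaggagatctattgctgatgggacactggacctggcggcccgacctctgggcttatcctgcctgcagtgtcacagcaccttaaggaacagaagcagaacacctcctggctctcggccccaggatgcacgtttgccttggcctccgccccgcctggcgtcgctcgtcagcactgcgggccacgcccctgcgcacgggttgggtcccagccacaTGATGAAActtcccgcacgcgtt
A match to this element was found in 4 of 19 windows of the ATF4 arm (Trib3, Chac1, Asns and Slc7a11), in 1 of 13 of the chaperone arm (Herpud1) and in 4.51% of the 27025 genes with a window. Among the 11594 genes with a window that passed the filter on low signal, the share was 2.74%. Of the 5 genes with a match none was called in any comparison without the block, and Herpud1 was called with it.

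The stress factors of the ATF4 arm came next. Atf4 had a log2 signal of 14.53 and 14.54 on the control arrays under vehicle, 14.44 and 14.57 on those under E2, 14.57 and 14.49 on the FOXL2 siRNA arrays under vehicle, and 14.45 and 14.61 on those given E2. All groups overlapped. Over vehicle and E2 together Atf4 differed by 0.01, with a 95% interval of -0.14 to 0.16, or 90.8 to 112% of control siRNA. This interval rests on the brighter of its 2 probes (mean log2 signal 15.48, change 0.01). The dimmer probe (10.38), also well above background on all 8 arrays, had a change of -0.17 (SE 0.11, limma adjusted p = 0.431 over probes). Trib3, a pseudokinase induced by ATF4, had 10.75 and 11.09 on the control arrays under vehicle, 10.78 and 11.09 on those under E2, 10.79 and 11.07 on the FOXL2 siRNA arrays under vehicle, and 10.65 and 11.14 on those given E2. Here replicate 2 exceeded replicate 1 in every group, and the siRNA groups overlapped fully (-0.02, SE 0.14, limma adjusted p = 0.955).

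Ddit3 encodes CHOP, a transcription factor of prolonged ER stress. Its log2 signal was 11.77 and 11.71 on the control arrays under vehicle, 11.502 and 11.77 on those under E2, 12.03 and 12.19 on the FOXL2 siRNA arrays under vehicle, and 11.83 and 12.22 on those given E2. The FOXL2 siRNA arrays lay above all control arrays. The difference was 0.37 with vehicle, 0.39 with E2 and 0.38 over both treatments (SE 0.10), to 130% of control (95% interval 110 to 154%), and missed the threshold in the limma fit (adjusted p = 0.0539). With the replicate block it was called over both treatments (adjusted p = 0.00187), with vehicle (0.0241) and with E2 (0.022). Quantile normalization (adjusted p = 0.0431) or omitting the first FOXL2 siRNA array given E2 (adjusted p = 0.0229) also brought the value over both treatments past. Ddit4, an inhibitor of mTORC1 that stress induces, had a value of 0.68 with vehicle (SE 0.17, adjusted p = 0.0635) and 0.44 over both treatments (SE 0.12, adjusted p = 0.0547), with adjusted p of 0.000166 and 0.000183 in the fit with the block. Ppp1r15a encodes GADD34, which directs the dephosphorylation of eIF2α. It had a value of -0.58 with vehicle (SE 0.17, adjusted p = 0.104, and 0.000657 with the block) and -0.02 with E2 (SE 0.17, adjusted p = 0.975). The values of Ddit4 and Ppp1r15a by treatment depend on the doubted E2 labels of the control arrays. Atf5, Chac1 and Sesn2 had values of -0.03 to 0.09 over both treatments, with adjusted p of at least 0.672.

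**Figure D3:**
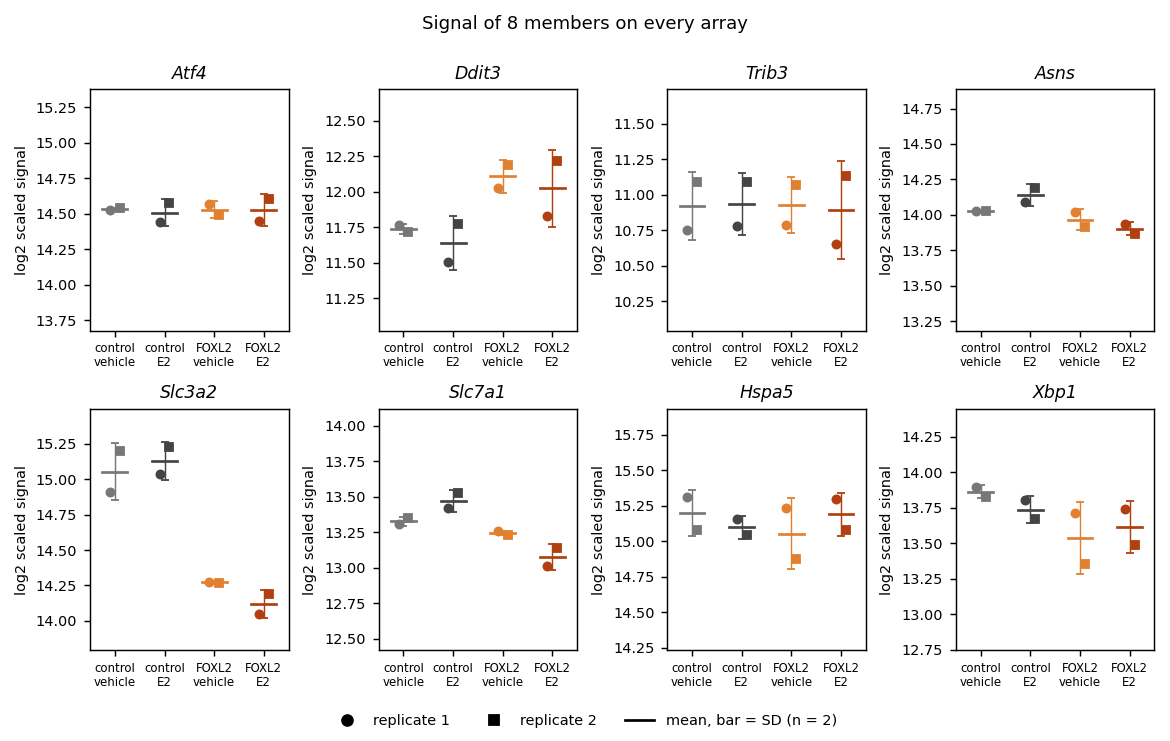
Log2 scaled signal (y axis, each panel with its own range) of 8 genes on every array, by group, with the mean and the SD (n = 2). The FOXL2 siRNA arrays (orange and brown) lie below the control arrays (greys) for Slc3a2, Slc7a1 and Asns and above them for Ddit3, and the arrays overlap for Atf4, Trib3, Hspa5 and Xbp1.

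In the chaperone arm, no gene was called between the siRNAs without the block. The share of genes called was 6.53% of the table with vehicle and 4.38% with E2, where the ATF4 arm had 1 and 2 genes called of 20. The changes of the 15 chaperone arm genes ran from -0.29 to 0.16 over both treatments, and their 95% intervals, from -0.65 to 0.33 in all, lay within 1 log2 unit of no change for 15 of 15 genes. Their signs leaned opposite ways under vehicle and E2. With vehicle 10 of 15 were negative (median -0.14), and with E2 10 of 15 were positive (median 0.09), beside medians of -0.01 and 0.00 over all genes. Of all genes, 51.7% were negative with vehicle and 49.7% with E2. These signs depend on the E2 labels of the control arrays, which are open to doubt as given above. The difference between these effects was positive for 10 of 15 (median 0.11), and 0 of the 15 passed in its own limma test, either adjusted or at an unadjusted p under 0.05.

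Hspa5 encodes BiP, the main HSP70 chaperone of the ER lumen and the usual measure of ER load. BiP mRNA read 15.31 and 15.08 in log2 signal on the control arrays under vehicle, 15.15 and 15.04 on those under E2, 15.23 and 14.88 on the FOXL2 siRNA arrays under vehicle, and 15.30 and 15.08 on those given E2. The groups overlapped, and replicate 1 was the higher array in each. Over vehicle and E2 together Hspa5 differed by -0.03, with a 95% interval of -0.26 to 0.21 (SE 0.10, limma adjusted p = 0.911). The window of Hspa5 is printed because it holds the ER stress response element, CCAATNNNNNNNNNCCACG, whose outer bases are in capitals. The match began 65 bases before the start.
Hspa5 promoter, GRCm38.p6, chr2:34771840-34772089, plus strand: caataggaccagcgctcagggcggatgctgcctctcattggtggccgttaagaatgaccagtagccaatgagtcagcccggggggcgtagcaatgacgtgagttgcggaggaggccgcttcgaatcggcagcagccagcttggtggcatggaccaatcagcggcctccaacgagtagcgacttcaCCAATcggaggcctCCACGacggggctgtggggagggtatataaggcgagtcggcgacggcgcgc
This element was matched in 6 of 13 windows of the chaperone arm (Hspa5, Hsp90b1, Calr, Canx, Creld2 and Pdia6), in 0 of 19 of the ATF4 arm and in 0.137% of all genes (0.181% of those that passed the filter). Its second form, ERSE-II, was matched in Herpud1 among the members and in 0.0444% of all genes, and the XBP1 element TGACGTGG in no member and 0.714% of all genes. Among genes that passed the filter these shares were 0.0776% and 0.957%. Without the block none of these 7 genes was called over both treatments, and with it Herpud1 was (adjusted p = 0.00879). They had values of both signs over both treatments, from -0.27 for Herpud1 (SE 0.10, adjusted p = 0.128) to 0.16 for Canx (SE 0.06, adjusted p = 0.151).

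Of the sensors and factors, Xbp1, whose mRNA is spliced by IRE1, had a log2 signal of 13.89 and 13.83 on the control arrays under vehicle, 13.80 and 13.67 on those under E2, 13.72 and 13.36 on the FOXL2 siRNA arrays under vehicle, and 13.74 and 13.49 on those given E2. The FOXL2 siRNA arrays reached into the control range, and the value of -0.22 over both treatments was not called (SE 0.10, limma adjusted p = 0.194), but was with the block (adjusted p = 0.0189). Splicing of its mRNA was not measured. Ern1 (-0.29, SE 0.16, adjusted p = 0.294) and Atf6 (0.13, SE 0.09, adjusted p = 0.392) were not called either. Among disulfide isomerases, Pdia4 had a value of -0.32 with E2 (SE 0.08, adjusted p = 0.0763) and -0.20 over both treatments (SE 0.06, adjusted p = 0.0643), called with the block (adjusted p = 0.0187 and 0.0235), with all FOXL2 siRNA arrays below all control arrays. Pdia6 was at 0.03 (SE 0.06). Creld2, a secreted ER stress protein, had a value of -0.32 with vehicle (SE 0.11, adjusted p = 0.144, and 0.0323 with the block) and -0.01 with E2 (SE 0.11, adjusted p = 0.968). For Pdia4 and Creld2, too, the values by treatment depend on those E2 labels of the control arrays. The remaining chaperones and the degradation factor Edem1 lay between -0.12 for Hyou1 and 0.11 for Hsp90b1 over both treatments.

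Counted by array, 10 of the 35 genes (28.6%) showed no overlap between the 4 FOXL2 siRNA and the 4 control arrays, against 20.9% of all genes. The 8 lower ones, a pattern found in 10.7% of all genes, were Asns, Psat1, Psph, Shmt2, Slc3a2, Slc7a1, Pdia4 and Herpud1. The other 2, Ddit3 and Canx, were higher. Without the block Slc3a2 and Slc7a1 among them were called.

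The second question was whether E2 moved these genes, and whether it did so differently with FOXL2 siRNA. The doubt about the E2 labels of the control arrays, given above, applies to the signs of E2 values with control siRNA. It also applies to the size, sign and calls of the difference between the E2 effects. Without the block, no gene of either arm was called for E2 with control siRNA, with FOXL2 siRNA or for the difference between both. The share called in the whole table was also small, at 0.0192%, 0.0128% and 0.243%. At an unadjusted p under 0.05, the limma fit gave 1 gene of the ATF4 arm with control siRNA, 0 with FOXL2 siRNA and 1 for the difference, and 0 genes of the chaperone arm in all 3. The first was Ppp1r15a, which had a value of -0.44 with E2 in the control siRNA arrays (SE 0.17, adjusted p = 1.00), from 12.99 and 13.32 with vehicle to 12.49 and 12.94 with E2. The second was Slc7a1. With the replicate block, Ppp1r15a was called with control siRNA (-0.44, SE 0.09, adjusted p = 0.0401) and for the difference (0.56, SE 0.13, adjusted p = 0.0426), where 1.16% and 2.12% of all genes were called, and no other gene of the arms was.

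The median E2 change was 0.02 in the ATF4 arm and -0.06 in the chaperone arm with control siRNA, and -0.06 and 0.08 with FOXL2 siRNA, beside -0.01 and -0.03 over all genes. With FOXL2 siRNA 17 of 20 ATF4 arm genes had a negative value, against 59.0% of all genes, and 10 of 15 chaperone arm genes a positive one. The 95% intervals of the chaperone arm ran from -0.55 to 0.47 with control siRNA and from -0.58 to 0.67 with FOXL2 siRNA, so that an E2 effect of 1 on the log2 scale lay outside them for 15 of 15 genes. In the ATF4 arm this held for 18 of 20 genes with each siRNA. Slc7a11, near background, and Slc7a5, with its scatter, were the exceptions. For Atf4 the interval was -0.24 to 0.18 with control siRNA and -0.21 to 0.21 with FOXL2 siRNA.

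**Figure D4:**
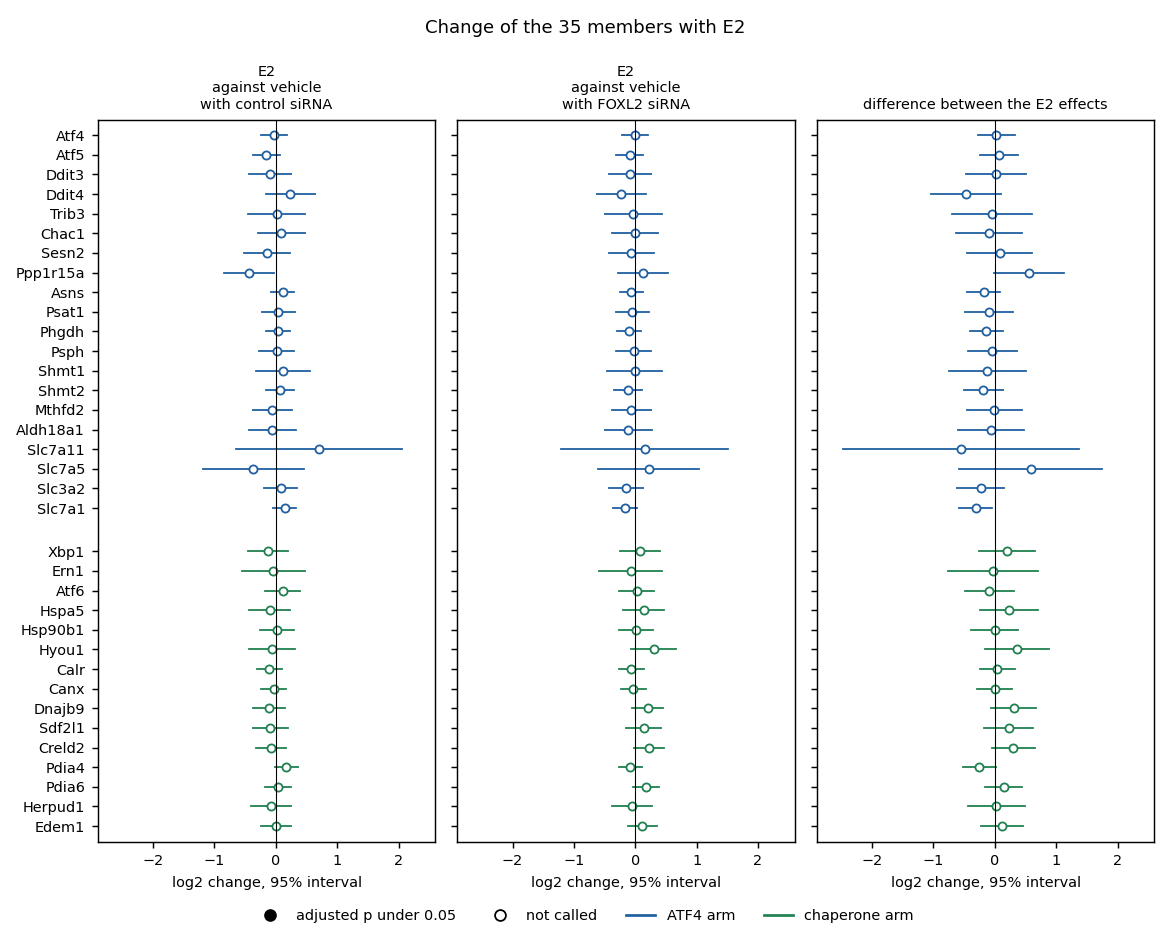
Log2 change of the 35 genes with E2 (x axis) in the control siRNA arrays, in the FOXL2 siRNA arrays, and the difference between both (panels from left to right), with the 95% interval of the limma fit. All points are open, since no gene had an adjusted p under 0.05 in this fit without the block, and the widest intervals are those of Slc7a11 and Slc7a5.

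Part of the spread of the ATF4 arm ran between the replicate numbers, which also mark the rows of the slide. The mean of the 4 arrays numbered 2 minus that of the 4 arrays numbered 1 had a median of 0.19 in the ATF4 arm and -0.07 in the chaperone arm, beside 0.00 over all genes. It was larger in size than the siRNA difference for 14 of the 35 genes, against 44.4% of all genes. The arrays numbered 2 were all higher than those numbered 1 for Trib3, Sesn2, Mthfd2 and Slc7a5, and all lower for Hspa5, making 5 of 35 genes (14.3%) against 11.1% of all genes. Slc7a5 had 7.55 to 8.00 on the arrays numbered 1 and 8.25 to 8.64 on those numbered 2. These are descriptions without a test, and any difference between mouse pools cannot be told apart from the slide row in them.

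**Figure D5:**
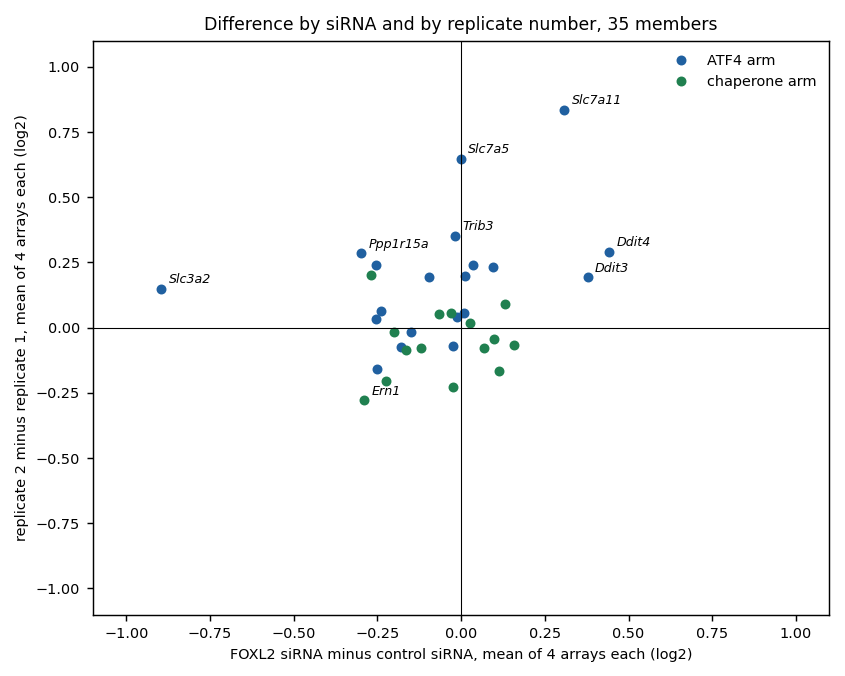
Difference between the siRNAs (x axis) and between the replicate numbers (y axis), each as the mean of 4 arrays minus the mean of the other 4 on the log2 scale, for the genes of the ATF4 arm (blue) and the chaperone arm (green). Slc3a2 stands apart to the left at -0.90, while Slc7a11, Slc7a5 and Trib3 lie high on the replicate axis.

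Further genes of both pathways were read as 2 longer lists. Of 38 genes of the integrated stress response and amino acid pathways outside the 35, 37 passed the filter on low signal, and 6 of these were called over both treatments, 4 lower and 2 higher, which is 16.2% against the 12.6% of the whole table. The largest changes were those of Nupr1, a stress-induced chromatin protein (-1.28, SE 0.19, limma adjusted p = 0.00499), Stc2, a secreted stress glycoprotein (0.92, SE 0.09, adjusted p = 0.00104), and Gdf15, a stress cytokine (0.88, SE 0.21, adjusted p = 0.0308). Nupr1 had log2 signals of 16.55 to 17.22 on the control arrays and 15.22 to 16.12 on the FOXL2 siRNA arrays, and Stc2 of 9.34 to 9.73 and 10.41 to 10.61, both without overlap. Gdf15 overlapped, at 9.23 to 10.11 and 9.95 to 10.90, and its call was lost when either control array under vehicle, replicate 1 of control siRNA given E2, or replicate 2 of either FOXL2 siRNA group was omitted (adjusted p up to 0.105) and with no filter (0.0598). The other genes called, named after their values had been seen, were the transcription factor Cebpb (-0.56), the mitochondrial enzyme Pck2 (-0.77) and the cystathionine cleaving enzyme Cth (-0.54). Of 36 other genes of the unfolded protein response, 4 were called, or 11.1%, again close to the background. They were Wfs1, an ER membrane protein (-0.46, SE 0.07, adjusted p = 0.00506), Creb3, a membrane-bound transcription factor (0.42, SE 0.07, adjusted p = 0.0088), Derl1, a part of the retrotranslocation complex (0.27, SE 0.07, adjusted p = 0.037), and Ube2j1, a ubiquitin-conjugating enzyme of the ER, also named after its value was seen (-0.26, SE 0.06, adjusted p = 0.0259). Omitting any array except replicate 2 of FOXL2 siRNA under vehicle ended the call of Derl1 (adjusted p up to 0.115), as did normexp (0.0772). Without the block, none of the 73 genes of these lists was called for E2 or for the difference between the E2 effects.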

How the data were processed

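RNA of 8 samples, in 4 groups of 2 taken from the sample titles, was amplified from 50 ng, labelled with Cy3 and hybridised to 1 one-colour Agilent array each, all on 1 slide. Per the file headers, the deposited scanner files hold spot intensity values from Agilent Feature Extraction, with background and spatial trends removed by the authors' software and no scaling between arrays. The deposited table of the authors is on a log2 scale. Its values equalled, at 98.7 to 98.9% within 0.001, the log2 of the mean processed intensity of a gene's probes less a constant per array. That constant was taken out as the median difference, so the comparison does not show that it was the 75th percentile. The table had no centring over arrays and column medians of -4.24 to -3.95, and it served to pair probes with Entrez IDs.

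Control spots (3671 of 62976) and 42 probes with non-uniform spots were left out. Processed intensity was divided by the array's 75th percentile (275 to 367) and multiplied by the mean of these, probes of a gene were averaged on the linear scale, and genes with a median of at least 10 were kept. Well above background were 51.4 to 55.6% of probes, and 0 were saturated. The number of arrays limits the precision. limma 3.58.1 in R 4.3.3 fitted 4 group means over 8 arrays with an intensity trend and 4 residual degrees of freedom, with two-sided tests and Benjamini-Hochberg adjustment over 15645 genes. The fitting code was also run on simulated data with known changes. Alternatives were the replicate number as a block, quantile normalization, normexp with an offset of 50, no filter, the authors' table, the brightest probe, leaving out each array and, for E2, the size rule of the methods (a difference of at least 1 that is over 2 times the sum of both SDs).

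Hsd11b2, Tacc1, Angpt2 and Cbs, read to check the E2 labels, were added after the data had been seen. The genes and lists were chosen with earlier results of these data known. Values on every array are given for called members and for Atf4, Ddit3, Asns, Trib3, Hspa5 and Xbp1, and of each other list the 3 called genes with the largest change are named. Promoter windows came from RefSeq, GRCm38.p6, and were searched for 4 elements on both strands. Symbols named 22352 of 24235 Entrez IDs. Plots used matplotlib 3.10.9, and tables used pandas 2.3.3 and numpy 2.4.6 under Python 3.11.15.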

Additional observations from a re-analysis of the deposited data

How the results depend on the processing

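The calls of Slc3a2 over both treatments and with E2 held under every alternative run, and its change over both treatments stayed between -0.97 and -0.82 in the fits without 1 array. Same-numbered replicates deviated together (correlations of 0.33 to 0.45 between groups), and lay in the same row of the slide. The labels do not say whether they also shared a mouse pool, and 2 numbers are too few to decide the pairing from the correlations. The fit without the block was kept, although each row held all 4 groups. Differences between the rows thus stay in its error, and a gene not called in it can be called with the block. With the replicate block, the genes called rose to 2928 with vehicle, 2330 with E2, 4327 over both treatments, 182 for E2 with control siRNA, 96 for E2 with FOXL2 siRNA and 332 for the difference between the E2 effects. The ATF4 arm members called were then 4, 3, 8, 1, 0 and 1, and those of the chaperone arm 2, 1, 3, 0, 0 and 0. Over both treatments the block called Ddit3, Ddit4, Ppp1r15a, Psat1, Psph, Shmt2, Slc3a2, Slc7a1, Xbp1, Pdia4 and Herpud1.

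Quantile normalization called 1 chaperone arm member with vehicle, Creld2, and 4 members of the ATF4 arm over both treatments. The ATF4 arm had 1 member called with E2 under normexp and with no filter, and 1 over both treatments with no filter. The share of all genes called between the siRNAs in these settings is not given here. These member counts thus cannot be read as above or below the background. For E2, the all-gene counts were 7 with normexp, 1 with no filter and 71 under the size rule with control siRNA, 0 with no filter, 1 with the brightest probe and 34 under the size rule with FOXL2 siRNA, and 9 with no filter for the difference. Where limma called 0 genes with no filter, 848 genes stood at an unadjusted p under 0.05. The size rule took in 0 members.

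Without 1 array, all-gene counts ran from 309 to 918 with vehicle, 130 to 629 with E2, 1181 to 1878 over both treatments, 0 to 5 and 0 to 4 for E2 with control and FOXL2 siRNA, and 4 to 10 for the difference. ATF4 arm counts ran from 0 to 1 with vehicle, 1 to 1 with E2 and 1 to 3 over both treatments. The siRNA counts with vehicle and with E2 fell by over 1.5 times without any 1 of the 4 arrays compared, to the lowest without replicate 2 of FOXL2 siRNA with vehicle and, with E2, replicate 1 of the control arrays given E2. Over both treatments they did so without either array of control siRNA with E2 (1212 and 1265) or replicate 2 of FOXL2 siRNA with vehicle (1231) or with E2 (1181).

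Only values that were not called turned their sign. With quantile normalization Atf4 went to -0.0033 with E2, -0.034 over both treatments, and 0.015 and 0.076 for E2 with control and FOXL2 siRNA. With normexp Trib3 went to 0.028 with E2, 0.037 over both treatments and 0.071 for E2 with FOXL2 siRNA, and Atf4 to 0.040 for the last. The authors' table gave -0.0011 for Trib3 with vehicle and 0.015 for Atf4 with E2 and FOXL2 siRNA, and the brightest probe 0.0023 for Atf4 with vehicle. Without 1 array the ranges were, for Atf4, -0.044 to 0.037 (vehicle), -0.059 to 0.10 (E2), -0.031 to 0.049 (both), -0.092 to 0.040 and -0.081 to 0.078 (E2 effects with control and FOXL2 siRNA) and -0.056 to 0.10 (difference). For Trib3 they were, in the same order, -0.16 to 0.18, -0.28 to 0.20, -0.14 to 0.10, -0.16 to 0.18, -0.28 to 0.21 and -0.29 to 0.19. For Hspa5 the first 5 were -0.32 to 0.035, -0.016 to 0.20, -0.11 to 0.063, -0.21 to 0.016 and -0.041 to 0.31. For Ddit3 the last 3 were -0.24 to 0.034, -0.28 to 0.11 and -0.17 to 0.21. Xbp1 ran from -0.25 to 0.0064 with E2 and -0.10 to 0.26 for the E2 effect with FOXL2 siRNA, and Slc3a2 from -0.065 to 0.22 for that with control siRNA. Where an alternative changed a result, the cause was not tested, apart from the smaller sample left by omitting an array.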
